A study of Mus musculus with 2 samples.

Results

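Cdkn1a-high cells are induced macrophages in which the gene for p21, an inhibitor of cyclin-dependent kinases, reached at least 800 counts per 1000000 counts of the cell (CPM). They numbered 238 of the 5207 cells (4.57%) that had at least 500 genes, at most 15% of counts in mitochondrial genes and at least 5000 counts, out of 6837 barcodes in all. They were compared with 1122 Cdkn1a-low cells of the same limits with Cdkn1a under 100 CPM, and the other 3847 cells lay between. The cells are wild type mouse induced macrophages, which the series title describes as fibroblasts reprogrammed with c-Myc alone. EDTA in PBS was used to lift them, and libraries were made in droplets on a DNBelab C4 instrument. The labels list 2 libraries (cDNA and oligo), which the barcodes do not tell apart, and all cells therefore count as 1 sample. Both groups share genotype and treatment, and differ by the Cdkn1a level used to choose them. With 1 sample there is no replicate and no test, and every interval below is a 95% interval that covers counting error only.

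The protein p21 binds complexes of cyclins and cyclin-dependent kinases and the replication clamp PCNA, and so restrains entry into and passage through the cell cycle. Its gene is a classical target of the transcription factor p53, which is held low by the ubiquitin ligase Mdm2, itself a p53 target, and is released after DNA damage or oncogene activity. Other inputs, among them TGF-beta signalling, early response factors and differentiation, also act on Cdkn1a. In macrophages p21 is known for restraining proliferation as the cells mature.

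The promoters of Cdkn1a and 2 further p53 targets are shown because they carry matches to the p53 half-site, the 10-base element that p53 binds in pairs, and because both further genes were higher in the cells chosen for Cdkn1a. Windows run from 250 bases before to 50 bases after an annotated start (RefSeq, GRCm38.p6), are written 5′ to 3′ on the gene's strand, and have half-site matches in capitals. They are Cdkn1a at chr17:29090729-29091028 (plus strand), Mdm2 at chr10:117710709-117711008 (minus strand) and Ccng1 at chr11:40755237-40755536 (minus strand).
Cdkn1a: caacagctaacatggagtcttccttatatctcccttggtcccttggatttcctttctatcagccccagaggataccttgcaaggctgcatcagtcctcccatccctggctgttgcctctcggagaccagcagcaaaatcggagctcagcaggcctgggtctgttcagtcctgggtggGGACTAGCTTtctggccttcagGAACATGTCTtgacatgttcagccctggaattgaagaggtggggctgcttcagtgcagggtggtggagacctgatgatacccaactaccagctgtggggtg
Mdm2: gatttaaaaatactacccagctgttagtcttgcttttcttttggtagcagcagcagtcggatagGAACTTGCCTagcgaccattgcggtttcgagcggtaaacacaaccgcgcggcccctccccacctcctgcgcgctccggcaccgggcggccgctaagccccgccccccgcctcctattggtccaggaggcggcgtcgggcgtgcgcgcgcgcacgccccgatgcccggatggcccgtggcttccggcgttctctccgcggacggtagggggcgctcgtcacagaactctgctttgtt
Ccng1: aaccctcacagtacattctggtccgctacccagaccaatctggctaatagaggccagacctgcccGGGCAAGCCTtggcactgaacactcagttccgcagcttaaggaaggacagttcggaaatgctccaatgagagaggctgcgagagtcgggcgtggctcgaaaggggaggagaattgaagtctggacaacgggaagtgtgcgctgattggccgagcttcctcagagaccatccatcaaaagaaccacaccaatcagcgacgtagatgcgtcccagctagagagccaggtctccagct
In the Cdkn1a window the matches begin 73 and 51 bases before the start, in Mdm2 186 and in Ccng1 185 bases before it. The windows of Mdm2 and Ccng1 thus held 1 match each and no pair of matches. The window of the other annotated Cdkn1a start (chr17:29093519-29093818) held no match. Nor did the windows of Phlda3 and Psrc1, with log2 ratios of high to low cells of 1.72 and 1.64. Bax and Sesn1, with log2 ratios of 0.18 and 0.11, had a window with a match. Whether a match goes with a higher level was not tested. A window was found for 22 of the 31 p53 target genes, Cdkn1a included, and 9 of the 22 (40.9%) held a match on either strand, as did 9.55% of all 27025 genes with a window and 8.07% of the 5364 tested ones. The genes were listed as known p53 targets, so their share is a description and not a test. The motif was searched by its consensus without mismatches, and a match is a description of the letters, not a shown binding site.

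Cdkn1a itself, which chose the groups and is given as a description, stood at 1010.1 CPM (987 to 1033) summed over the high cells, 328 CPM in the cells between and 49.8 CPM (47.1 to 52.6) in the low cells. Within the high cells the lowest value was 801 CPM, the median 971 CPM and the highest 2383 CPM, from 5 to 178 Cdkn1a counts per cell. Of the low cells 468 had no Cdkn1a count. The plot of Cdkn1a against depth shows that cells from shallow to deep entered the high group, with 65 of them under 10000 counts and 52 resting on fewer than 10 Cdkn1a counts. High cells had a median of 22017 counts and 3890 genes and low cells 17367 counts and 3221 genes. Each comparison was therefore repeated with the low cells weighted to the depth of the high cells ("depth-matched"), and with G2 and M phase counts matched as well ("depth- and cycle-matched").

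**Figure D1:**
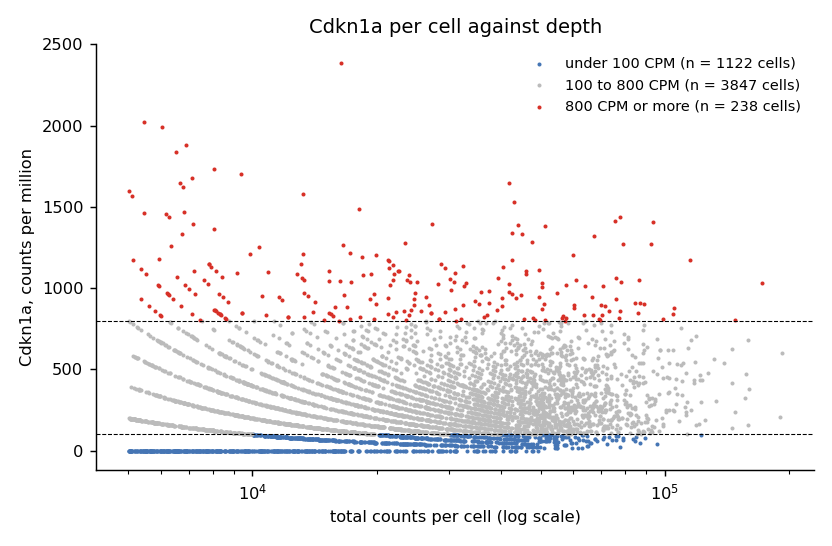
Cdkn1a level of each of the 5207 cells (vertical axis, CPM) against the cell's total counts (log axis), with dashed lines at 100 and 800 CPM. The 238 high cells (red) span the range of depth, and the curved rows of points at low depth are cells with the same small number of Cdkn1a counts.

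To see how much of the high level came from counting noise, cells were also chosen on a random part of their counts, each count being drawn with probability 0.5. The 306 cells so chosen stood at 1025 CPM of Cdkn1a in the counts used to choose them and at 844 CPM in the remaining counts. The 1389 cells chosen as low stood at 37.2 and 127 CPM. In the counts not used for the choice, Mdm2 was at 44.8 CPM in the high and 11.1 CPM in the low cells, and Phlda3 at 103 and 34.5 CPM.

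The p53 targets Mdm2, Phlda3, Pvt1 and Psrc1 had the 4 highest ratios of Cdkn1a-high to Cdkn1a-low cells among genes at 10 CPM or more. Of 6644 genes at 10 CPM or more over all 5207 cells, Cdkn1a left out, 594 (8.94%) had a log2 ratio of high to low cells of at least 0.5 (with 1 CPM added to each level), and 36 (0.542%) one of -0.5 or less, together 9.48%. Among the 30 p53 targets other than Cdkn1a, all with a row in the table, 15 reached 10 CPM, and 10 of these were past 0.5 and none past -0.5. Their median log2 ratio was 0.68, and the median of all 6644 genes was 0.11. The target list was chosen with earlier results of these data known, so its counts and medians are a description. With depth matched 4.68% of all genes were past 0.5 and 0.662% past -0.5 (5.34% together), and 9 of the 15 targets were past 0.5, with a median of 0.67. With depth and cycle matched the shares were 4.05% and 0.722% (4.77% together), and 8 targets were past 0.5, with a median of 0.69.

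Mdm2 (chromosome 10, 117688875 to 117710758, minus strand, GRCm38), which encodes the ligase that degrades p53, had the highest ratio of all genes tested. It stood at 49.7 CPM (44.7 to 55.0) in high cells, 19.5 CPM in cells between and 11.6 CPM (10.3 to 12.99) in low cells, a 4.28-fold ratio. The log2 ratio of Mdm2 was 2.01, and 1.79 with depth and cycle matched. Phlda3 (chromosome 1, 135766119 to 135769136), a p53-induced inhibitor of AKT signalling, came next at 108 CPM (100.4 to 115) against 32.1 CPM (30.0 to 34.4). For Phlda3 the matched log2 ratio, 1.97, was above the unmatched 1.72. Zmat3 (chromosome 3, 32334792 to 32366014), which encodes an RNA-binding protein of the p53 pathway, was at 71.8 CPM (65.8 to 78.2) against 27.8 CPM (25.8 to 29.9). For these 3 genes the intervals of the groups lay far apart, and no single high cell gave more than 6.39% of a gene's counts.

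Psrc1 and Gtse1 are p53-inducible genes whose products also act on microtubules in dividing cells. Psrc1 was at 38.7 against 11.8 CPM and Gtse1 at 28.7 against 9.15 CPM. Both kept a log2 ratio above 1 with depth and cycle matched, at 1.53 and 1.07. Pvt1 (chromosome 15, 62037986 to 62378096), the noncoding gene next to Myc, was at 26.2 CPM (22.6 to 30.1) against 7.48 CPM (6.47 to 8.62). Pvt1 leaned on few cells: 1 high cell held 18.6% of its counts, without which it stood at 21.7 CPM, and its log2 ratio of 1.68 was 0.96 with depth and cycle matched.

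The other tested targets of the p53 list were higher by less or not higher. Bbc3, which encodes the BH3-only protein PUMA, was at 39.1 against 19.4 CPM (log2 ratio 0.98). Ccng1, which encodes cyclin G1, was at 65.9 against 35.5 CPM (0.87) and the nuclease gene Aen at 59.4 against 37.0 CPM (0.67). Between 5000 and 10000 counts Ccng1 was at 41.0 against 39.0 CPM, with wider gaps in deeper cells. Sesn2, a stress-induced inhibitor of mTORC1 signalling, was at 34.4 against 21.2 CPM (0.68), and Ei24 at 42.5 against 29.1 CPM (0.53); both were under 0.5 with depth and cycle matched, at 0.47 each. The remaining 5 of the 15 were within 0.5 of 0. Bax, the effector of mitochondrial death, was at 493 against 435 CPM (0.18), Apaf1 at 17.5 against 13.7 CPM (0.33), Sesn1 at 20.0 against 18.5 CPM (0.11), Rrm2b at 39.0 against 38.7 CPM (0.01) and Tigar at 32.9 against 40.6 CPM (-0.30). The targets were thus uneven, with linear ratios from 4.28 for Mdm2 to 0.810 for Tigar.

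The other 15 targets were under 10 CPM over all cells and outside the counts above. The stress cytokine gene Gdf15 was at 22.4 CPM (19.1 to 26.1) against 4.38 CPM (3.61 to 5.27), with 16.3% of its counts in 1 high cell. Trp53inp1, a cofactor of p53, was at 6.75 against 0.970 CPM and Polk, a translesion polymerase, at 10.1 against 3.41 CPM. Eda2r was at 1.89 against 0.0776 CPM, the latter from 2 counts. Pidd1 (8.37 against 4.07 CPM), Pmaip1 (11.2 against 6.13 CPM), Plk2 (9.45 against 5.16 CPM) and the death receptor gene Tnfrsf10b (3.37 against 1.47 CPM) had intervals that did not overlap. How many of all genes had such intervals was not counted. With depth matched the log2 ratio of Plk2 went from 0.76 to 0.37 and that of Pmaip1 from 0.78 to 0.46. Pidd1 went from 0.89 to 0.86 and Tnfrsf10b from 0.82 to 0.88. For Fas (3.24 against 1.82 CPM), Plk3, Xpc, Perp, Btg2, Gadd45a and Ddb2 the intervals overlapped, and Ddb2 and Gadd45a had ratios below 0 (-0.37 and -0.01).

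**Figure D2:**
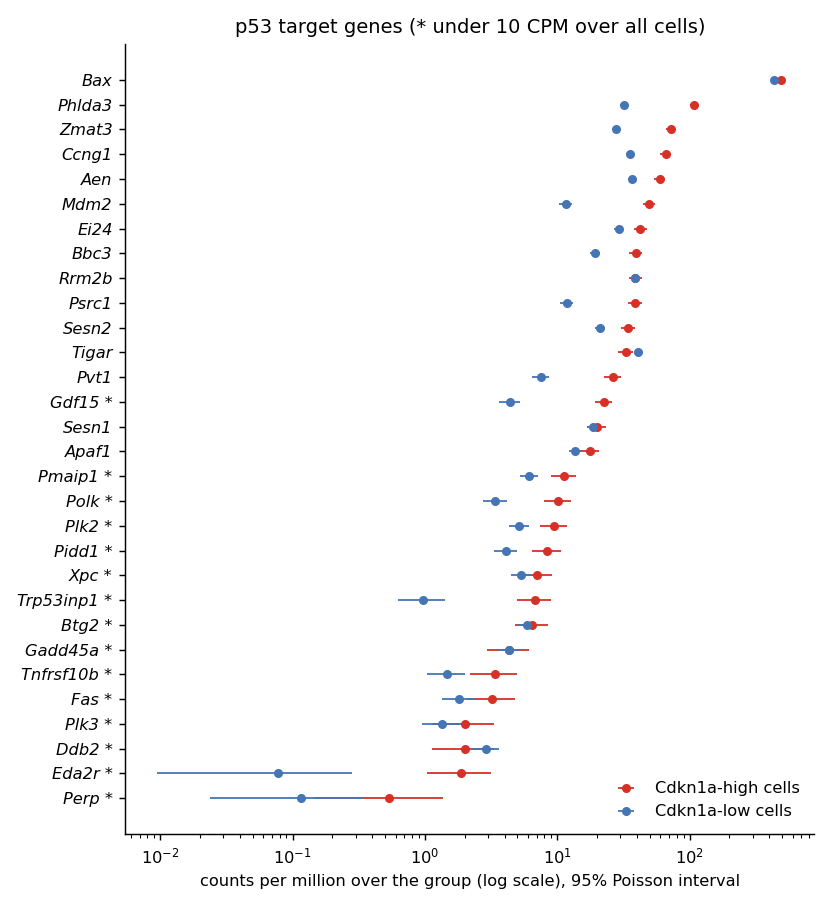
Level of each of the 30 p53 target genes (log axis, CPM summed over the group, bars are 95% Poisson intervals) in the 238 Cdkn1a-high (red) and 1122 Cdkn1a-low cells (blue). The gap is widest for Eda2r, Trp53inp1, Gdf15, Perp (wide intervals), Mdm2, Pvt1, Phlda3 and Psrc1, Rrm2b and Gadd45a nearly coincide, and Tigar and Ddb2 are lower in the high cells.

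The transcript of p53 itself was level between the groups within counting error. Trp53 was at 99.6 CPM (92.5 to 107) in high and 96.0 CPM (92.2 to 99.8) in low cells, a log2 ratio of 0.05. Of 9 tested genes of p53 and its regulators, 2 were past 0.5 (8.94% of all genes) and none was with depth and cycle matched (4.05%). These 2 were Mdm4, the partner of Mdm2 (14.2 against 8.03 CPM, log2 ratio 0.75 and 0.39 when matched), and the checkpoint kinase gene Chek2 (15.1 against 9.73 CPM, 0.59 and 0.31). The damage kinase gene Atm (14.2 against 10.6 CPM, 0.38), Chek1 (13.4 against 9.54 CPM, 0.45) and Hipk2 (19.6 against 13.7 CPM, 0.49) were under the limit. Usp7, Kat5 and Rps27l (1113 against 1083 CPM) were within 0.05 of 0 on the log2 scale. Under 10 CPM were Ppm1d (8.10 against 6.13 CPM), Atr (10.1 against 7.33 CPM) and Trp73 (0.135 against 0.233 CPM), and Trp63 had no count in either group (upper bounds 0.498 and 0.143 CPM).

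Among the other inhibitors of cyclin-dependent kinases, Cdkn2a and its neighbour Cdkn2b had the widest ratios, both at low levels. Cdkn2a, which encodes both p16 and the Mdm2 antagonist ARF, was at 5.67 CPM (4.09 to 7.66) from 42 counts in 28 high cells and at 0.853 CPM (0.535 to 1.29) from 22 counts in 22 low cells. Counts per gene do not tell its 2 products apart. Cdkn2b was at 1.08 CPM (0.466 to 2.13) from 8 counts against 0.155 CPM (0.0423 to 0.397) from 4 counts. Cdkn2c was at 18.5 against 11.2 CPM (log2 ratio 0.67, and 0.36 with depth and cycle matched), Cdkn2d at 24.6 against 19.4 CPM (0.33) and Cdkn1b, which encodes p27, at 4.18 against 2.68 CPM with overlapping intervals. Cdkn3, a phosphatase gene of dividing cells, was lower at 34.4 against 43.3 CPM (-0.32), and Cdkn1c had no count in high cells and 2 in low cells. Of the 3 inhibitors tested 1, Cdkn2c, was past 0.5 (8.94% of all genes) and none was past it with depth and cycle matched (4.05%).

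Mdm2 was highest in the cells highest in Cdkn1a, whereas Phlda3 and the list median did not climb at each step. From the cells under 100 CPM through the classes 100 to 200, 200 to 400 and 400 to 700 CPM, Mdm2 stood at 11.6, 12.6, 18.6 and 26.2 CPM. In the 126 cells just outside the limit (700 to 800 CPM) it was at 35.7 CPM (30.0 to 42.1), and in the 83 just inside (800 to 900 CPM) at 45.96 CPM (38.6 to 54.4), so the neighbours across the limit overlapped. It reached 69.0 CPM (54.8 to 85.7) in the 44 cells at 1200 CPM or more. Phlda3 was at 95.8 CPM just outside, 111 CPM just inside, 104 CPM at 900 to 1200 CPM of Cdkn1a and 108 CPM in the highest class. The list median, unmatched and 0.66 at 400 to 700 CPM of Cdkn1a, was 0.49 at 700 to 800 CPM and 0.77 in the highest class. With depth matched the list median was 0.65, 0.46 and 0.67 in these classes, and 0.73 at 900 to 1200 CPM.

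**Figure D3:**
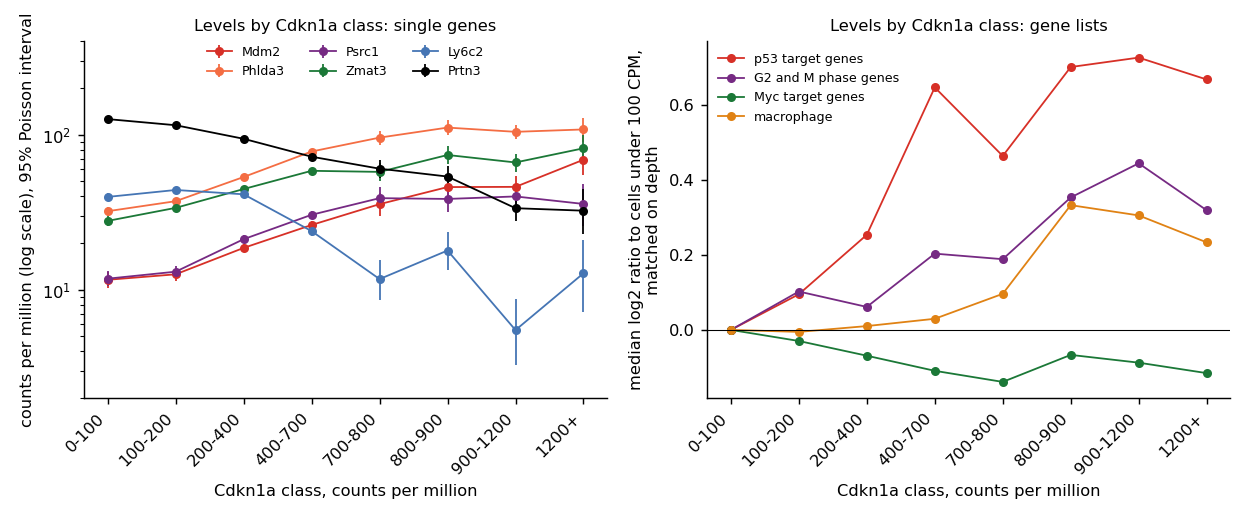
Left, levels of 6 genes (log axis, CPM, bars are 95% Poisson intervals) in 8 classes of Cdkn1a level. Right, median log2 ratio of 4 gene lists to the cells under 100 CPM, matched on depth. Mdm2, Phlda3, Psrc1 and Zmat3 are higher and Prtn3 and Ly6c2 lower in the classes of high Cdkn1a, while the Myc target median stays below 0 in every class above 100 CPM.

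Mdm2, Phlda3, Zmat3 and Psrc1 were also higher in each of the 4 depth strata and 4 cell cycle strata examined. Between 5000 and 10000 counts Mdm2 was at 51.7 CPM in 65 high and 14.9 CPM in 248 low cells, and at 40000 counts or more at 56.1 CPM in 71 high and 12.7 CPM in 181 low cells. The smallest gap was between 10000 and 20000 counts, with 26.2 against 10.6 CPM. By the summed level of 20 G2 and M phase genes, cells under 500 CPM had Mdm2 at 49.4 against 10.6 CPM, and cells at 3000 CPM or more had it at 44.6 against 16.1 CPM. The median of the 15 tested targets ranged from 0.34 to 0.73 over the 4 depth strata. Over the 4 cycle strata it ranged from 0.45 to 0.79. In each stratum 10 to 14 of the 15 were above 0. Without strata 4456 of all 6644 genes were above 0, and the share within strata was not counted. Pvt1 and Gtse1 behaved otherwise: in cells under 500 CPM of G2 and M genes Pvt1 was at 2.69 against 3.41 CPM and Gtse1 at 3.59 against 2.49 CPM, and at 1500 to 3000 CPM they were at 50.7 against 9.93 CPM and 43.5 against 16.1 CPM. At 3000 CPM or more Pvt1 was at 39.9 against 42.5 CPM and Gtse1 at 36.7 against 28.2 CPM, and between 10000 and 20000 counts Pvt1 had no count in 45 high cells and stood at 4.70 CPM in low cells.

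**Figure D4:**
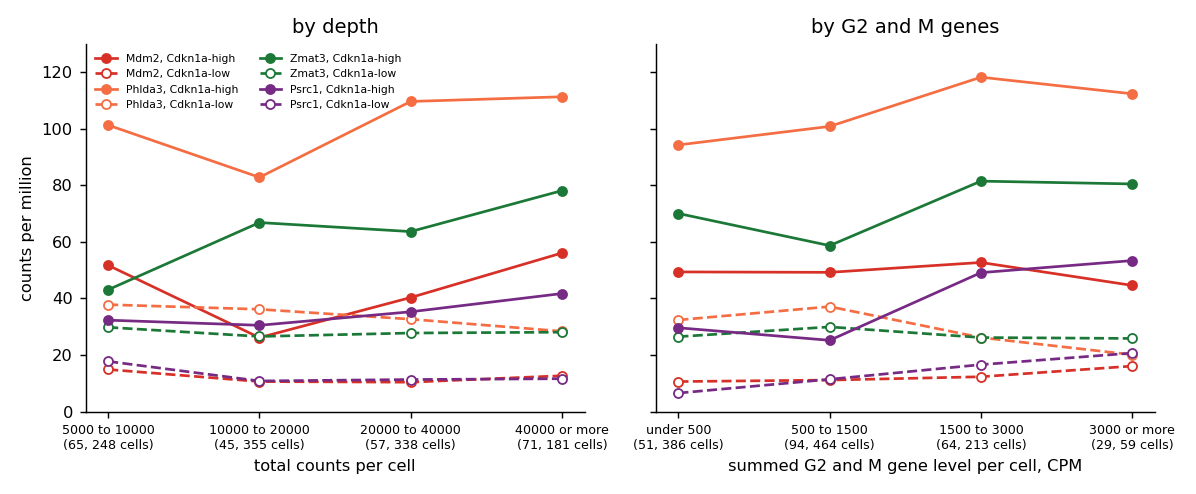
Levels of Mdm2, Phlda3, Zmat3 and Psrc1 (CPM) in Cdkn1a-high (filled) and Cdkn1a-low cells (open), by total counts per cell (left) and by the summed level of G2 and M phase genes (right). The numbers of high and low cells are under each stratum, and the filled point lies above the open one for all 4 genes in all 8 strata.

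Single cells varied widely. With each cell thinned to 5000 counts, which left out no cell, 18.9% of high cells had an Mdm2 count (exact interval 14.1 to 24.5%), 8.76% of cells between and 5.17% of low cells (3.95 to 6.63%); unthinned the shares were 50.4%, 35.6% and 19.6%. Phlda3 had a count in 36.1% (30.0 to 42.6%) of thinned high and 15.4% (13.4 to 17.7%) of low cells, or 73.1% and 38.5% unthinned. At least 5 counts of the targets other than Cdkn1a, Bax and Psrc1 were found in 26.5% of thinned high cells and 5.53% of low cells (78.6% and 62.0% unthinned). At least 1 such count was found in 95.4% of thinned high and 80.8% of thinned low cells, or 98.7% and 96.5% unthinned. No cell type known to lack these transcripts was present, so the share from free RNA was not estimated.

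Cdkn1a-high cells were not free of cell cycle transcripts. All 20 G2 and M phase genes were tested and 15 were past 0.5 (8.94% of all genes), with a median log2 ratio of 0.71. Top2a, which encodes a topoisomerase of replicated chromosomes, was at 164 against 82.2 CPM, the kinetochore genes Cenpf and Cenpe at 49.7 against 24.2 and 42.6 against 20.7 CPM, and the kinesin gene Kif20b at 23.8 against 11.4 CPM. High cells were also deeper, and with depth matched the median was 0.46 with 8 genes past 0.5 (4.68% of all genes). Within strata of G2 and M level the median lay between 0.11 and 0.22, and with depth and cycle matched it was 0.19; both hold fixed the summed level of these same 20 genes, so a small value there is set by the construction. After thinning, at least 10 G2 and M counts were found in 29.8% (24.1 to 36.1%) of high, 23.5% of between and 16.7% (14.5 to 19.0%) of low cells, or 69.3%, 71.2% and 59.7% unthinned. A cell without any S, G2 or M phase count at 5000 counts was as rare among high cells (1.26%, 0.261 to 3.64%) as among low cells (1.60%, 0.954 to 2.52%), within counting error.

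A promoter of this group is shown for contrast with those above, with the cell cycle homology region TTTGAA, through which repressor complexes of the cell cycle act, in capitals on either strand. It is Top2a at chr11:99024140-99024439 (minus strand, RefSeq, GRCm38.p6).
Top2a: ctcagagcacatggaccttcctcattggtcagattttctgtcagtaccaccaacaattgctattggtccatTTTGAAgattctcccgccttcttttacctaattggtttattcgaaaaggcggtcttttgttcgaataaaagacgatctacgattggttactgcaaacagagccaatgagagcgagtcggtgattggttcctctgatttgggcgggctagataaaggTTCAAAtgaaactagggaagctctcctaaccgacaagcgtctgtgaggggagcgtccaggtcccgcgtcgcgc
The matches begin 179 and 23 bases before the start. The element was found in 12 of 17 G2 and M phase genes with a window (70.6%), in 20.2% of all genes and in 14.2% of tested genes. Of the p53 targets 4 of 22 (18.2%) held it, and of the G2 and M phase genes 1 of 17 (5.88%) held a p53 half-site.

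Replication genes differed less. Of 20 S phase genes 1 was past 0.5 and 1 past -0.5, with a median of 0.22 (0.18 with depth and cycle matched). The shares of all genes were 8.94% past 0.5 and 0.542% past -0.5. The ribonucleotide reductase gene Rrm2 was at 86.2 against 54.9 CPM, the clamp gene Pcna, itself a reported p53 target, at 115 against 88.0 CPM and the uracil glycosylase gene Ung, which was lower, at 16.9 against 25.7 CPM. Among 14 cyclin, kinase, E2F and pocket protein genes tested 5 were past 0.5: Rb1 (14.2 against 7.91 CPM), the related Rbl1 (17.3 against 10.6 CPM), E2f3 (21.7 against 13.9 CPM), Cdk6 (53.2 against 36.5 CPM) and Ccne2 (16.3 against 11.2 CPM). With depth and cycle matched this count was 3, and 4.05% of all genes were past 0.5.

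Myc, the inducing factor named by the series, stood at 42.6 CPM in high and 36.0 CPM in low cells, with a log2 ratio of 0.24 that was 0.04 with depth and cycle matched. None of 22 Myc target genes was past 0.5 in either direction (9.48% of all genes were). Their median was 0.08 unmatched and -0.09 with depth and cycle matched, so the sign depended on the matching. The nucleolar protein gene Ncl was highest by ratio at 2495 against 2003 CPM (0.32, and 0.03 matched).

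Stress pathways that can also act on Cdkn1a were examined with the same limits. Over all genes 8.94% were past 0.5, and 4.05% with depth and cycle matched. In the ATF4 list 1 of 13 tested genes was past 0.5, Sesn2, which is also in the p53 list, and Atf4 itself was at 254 against 209 CPM (log2 ratio 0.28, and 0.03 matched on depth and cycle). Of 9 NRF2 antioxidant genes 3 were (1 with depth and cycle matched), among them Hmox1, which encodes haem oxygenase, at 87.1 against 59.3 CPM. None of 7 heat shock and none of 7 hypoxia genes was past 0.5. Of 13 early response genes 1 was, the stress factor gene Atf3 at 50.5 against 30.2 CPM, whereas Ier2 was lower at 61.8 against 80.0 CPM (-0.37). TGF-beta responses gave 2 of 4, Id2 (51.4 against 31.7 CPM) and the receptor gene Tgfbr2 (19.2 against 12.0 CPM). In the BCL2 family 1 of 8 was past 0.5, the survival gene Bcl2l1 at 33.6 against 22.5 CPM. Of 7 tested genes linked to senescence 1 was, Timp2 at 99.9 against 53.2 CPM, whereas Lmnb1, whose loss marks senescent cells, was at 108 against 92.6 CPM (0.22, and -0.08 matched on depth and cycle).

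Both groups were macrophages by their markers. All 20 macrophage genes reached 10 CPM, the receptor adaptor gene Tyrobp was at 5537 against 5874 CPM, and every thinned high cell had a count of it. The list median was 0.23 with 2 genes past 0.5 (Mrc1 and Msr1), and 0.31 with depth and cycle matched, when Adgre1, Ms4a7, Mrc1 and Cx3cr1 were. Among all genes 8.94% were past 0.5, and 4.05% with depth and cycle matched. Mrc1, the mannose receptor, was at 112 CPM (104 to 120) against 50.8 CPM (48.1 to 53.6), Ms4a7 at 37.0 against 26.3 CPM, Cx3cr1 at 110.5 against 79.0 CPM and the scavenger receptor gene Msr1 at 255 against 168 CPM. Ms4a7 went from a log2 ratio of 0.48 to 1.18 when matched. Of 15 phagocytic receptor genes 5 were past 0.5, among them Stab1 (39.9 against 22.4 CPM) and Itgam (51.0 against 30.8 CPM).

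Genes of immature myeloid cells led the opposite direction. Ly6c2, a monocyte surface antigen, had the lowest ratio of all genes tested, at 11.6 CPM (9.28 to 14.3) in high and 39.7 CPM (37.3 to 42.2) in low cells. Of its 86 counts in high cells 24 came from 1 cell, and without that cell it stood at 8.49 CPM. Prtn3, a granule protease, was at 41.4 CPM (36.9 to 46.3) against 126 CPM (122 to 131), and the monocyte chemokine receptor gene Ccr2 at 9.72 against 20.7 CPM. Thinned to 5000 counts, Prtn3 had a count in 16.8% (12.3 to 22.2%) of high and 31.6% (28.8 to 34.4%) of low cells, or 40.3% and 50.8% unthinned. For Ly6c2 the thinned shares were 5.46% (2.94 to 9.16%) and 9.71% (8.04 to 11.6%), with overlapping intervals, or 13.4% and 20.7% unthinned. Between 5000 and 10000 counts, however, Prtn3 was level, at 121 CPM in both groups. Not every monocyte gene was lower, since F13a1 was at 53.9 against 39.0 CPM and Vcan at 22.7 against 20.2 CPM. The other genes of lowest ratio were Rflnb, Snhg20, Mplkip, Ighm, Hotairm1, G430095P16Rik and Cytip, with log2 ratios from -1.15 to -0.73.

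Most interferon response genes that reached 10 CPM, and 3 chemokine genes, were also past 0.5. Of 8 tested interferon response genes 5 were past 0.5, with a median of 0.69 and of 0.88 with depth and cycle matched. For this and the lists below, the share of all genes past 0.5 was 8.94%. The ubiquitin-like modifier gene Isg15 was at 88.0 against 52.8 CPM, of which 1 high cell held 12.9%, and the signalling gene Stat2 was at 14.98 against 8.18 CPM. Interferon genes under 10 CPM over all cells had wider ratios in part. Rsad2 was at 28.2 against 7.48 CPM (log2 ratio 1.78, and 2.40 with depth and cycle matched). Ifit1 was at 9.58 against 2.79 CPM (1.48 and 1.97) and Usp18 at 12.3 against 4.69 CPM (1.22 and 1.68). Ifit2 was at 6.88 against 3.26 CPM, Ifit3 at 9.45 against 5.31 CPM and Zbp1 at 6.48 against 6.36 CPM. Of 7 tested NF-kB response genes 3 were past 0.5, the chemokine genes Ccl4 (81.1 against 39.1 CPM), Ccl3 (84.8 against 47.4 CPM) and Ccl2 (63.4 against 37.9 CPM). One high cell held 36.8% of the Ccl4 counts, and without it the level was 51.7 CPM. Of the other 4, Icam1 had a log2 ratio of 0.49, Nfkbia 0.35, Nfkb1 0.13 and Sod2 -0.07, and under 10 CPM Tnf (2.83 against 4.19 CPM), Relb (1.89 against 3.92 CPM) and Tnfaip3 (0.270 against 0.776 CPM) were lower in level. Among lipid-associated genes 2 of 12 were, namely Spp1 (942 against 540 CPM), which encodes osteopontin, and the fatty acid receptor gene Cd36 (44.9 against 30.8 CPM). None of 19 lysosomal genes was past 0.5 although 19 had a ratio above 0, with Ctsb at 1199 against 882 CPM. Of all 6644 genes 4456 had a ratio above 0.

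**Figure D5:**
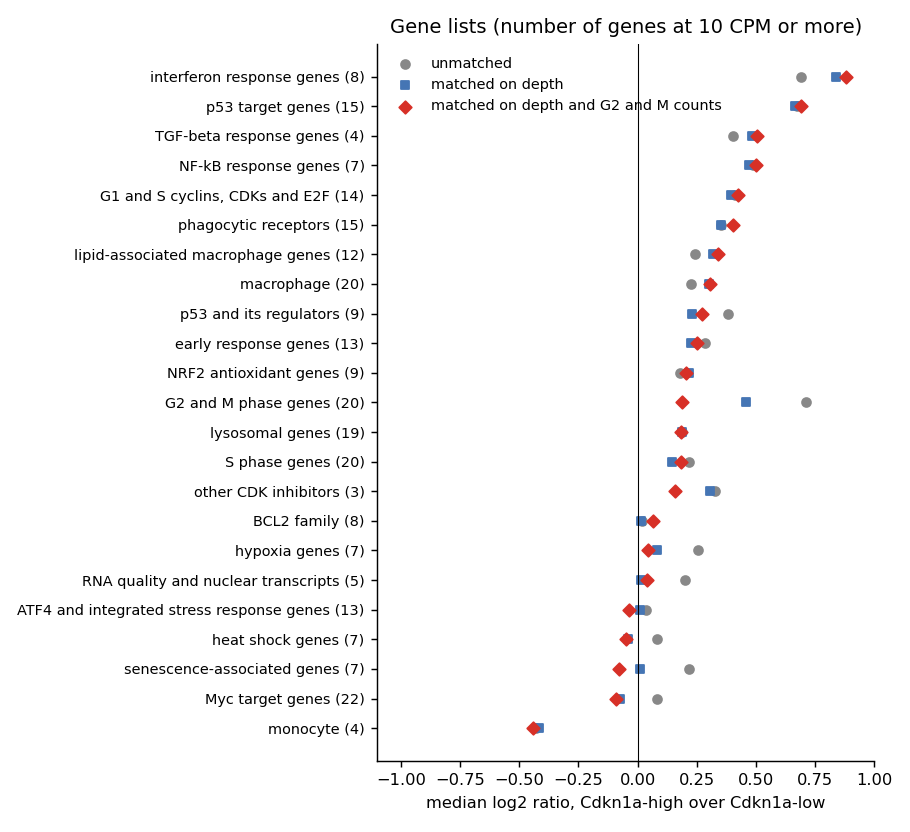
Median log2 ratio of Cdkn1a-high to Cdkn1a-low cells for each gene list with at least 3 genes at 10 CPM (number in brackets), unmatched (grey), matched on depth (blue) and matched on depth and G2 and M phase counts (red). Interferon and p53 lists stay above 0.6 in all 3, the G2 and M list goes from 0.71 to 0.19 (the last matched on these genes' own sum), and the monocyte list lies below 0.

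Of the 10 genes with the highest ratio, 5 were p53 targets of the list (Mdm2, Phlda3, Pvt1, Psrc1 and Zmat3), which has 15 of the 6644 genes tested. The other 5 were Gtse1, Rnf169 (22.3 against 7.37 CPM), whose product binds ubiquitin marks at DNA breaks, Col18a1 (37.3 against 14.1 CPM), a collagen gene, Gas6 (74.1 against 29.7 CPM), the ligand of TAM receptors such as Mertk, and Hmga2 (53.04 against 22.1 CPM), a chromatin protein gene. The p53 target list was chosen with earlier results of these data known, so its share of the top genes is a description. Gtse1, Pcna and Neat1, described here as p53-inducible or reported p53 targets, are not in it. They were named by the size of their ratios and do not stand for all p53 targets outside the list. With depth and cycle matched, 4 of the 10 highest were p53 targets of the list. Pvt1, Gtse1, Rnf169 and Hmga2 were then no longer among the 10, and Ahnak2, Plxdc2, Ephx1 and Fxyd2 were, with log2 ratios of 1.65, 1.43, 1.36 and 1.25 (chosen for naming with their values in view).

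For comparison, 2 kinds of cells resembling parts of this pattern were set beside it, both taken within the Cdkn1a-low cells so that Cdkn1a could not carry the contrast. In 272 low cells with G2 and M genes at 1500 CPM or more, set against 386 under 500 CPM, Mdm2 was at 13.2 against 10.6 CPM, Phlda3 at 24.8 against 32.4 CPM and Zmat3 at 26.1 against 26.5 CPM. Psrc1 (17.5 against 6.56 CPM), Gtse1 (18.9 against 2.49 CPM) and Pvt1 (17.4 against 3.41 CPM) were higher in these dividing cells without high Cdkn1a. The p53 target median was 0.26 there, with 4 of 15 past 0.5 where 28.6% of all genes were. In 97 low cells with the maturation genes Ms4a7 and Folr2 at 100 CPM or more together, set against 939 without a count, Mdm2 was at 12.9 against 10.99 CPM, Phlda3 at 24.3 against 32.4 CPM and Zmat3 at 18.1 against 27.3 CPM. The p53 target median was -0.38, with 1 of 15 past 0.5 where 16.5% of all genes were. In these mature cells Mrc1 (178 against 34.6 CPM) was higher and Ly6c2 (0.953 against 47.8 CPM) and Prtn3 (21.0 against 143 CPM) lower, as in the Cdkn1a-high cells. Interferon genes had a median of 2.25 there (8 of 8 past 0.5), lipid-associated genes one of 1.47 (12 of 12), and Spp1 was at 2595 against 313 CPM, wider gaps than in the Cdkn1a-high cells. Neither contrast was matched on depth. Median counts were 22962.5 against 14907.5 in the G2 and M contrast and 16459 against 15856 in the Ms4a7 and Folr2 contrast. With 1 sample the differences between these contrasts were not tested.

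Most marker lists of other cell types were sparse in both groups. The exceptions were the erythroid and megakaryocyte list, at 328 CPM in high and 256 CPM in low cells, nearly all from Pf4 (328 against 256 CPM), and the granulocyte list, at 52.4 and 140 CPM, mostly from Prtn3. Osteoclast markers were at 19.6 and 15.4 CPM, with Nfatc1 leading. Summed over each of the other lists, fibroblast markers were at 2.97 CPM in high and 3.18 CPM in low cells, and dendritic cell markers at 7.56 and 9.04 CPM. T and NK cell markers were at 1.62 and 1.16 CPM, and mast cell markers at 0 and 0.116 CPM, from 3 counts in low cells. B cell markers were at 8.91 and 4.96 CPM, nearly all from Blnk (8.77 and 4.69 CPM). The immunoglobulin gene Ighm, outside that list, was at 40.5 CPM in high and 70.7 CPM in low cells. Col1a1, Col1a2, Col3a1, Dcn, Lum, Thy1 and Prrx1 had no row. Scrublet marked 0 of the 6751 cells, a sign of a failed call rather than of no doublets, and none was removed. Thinned to 5000 counts, high cells had a median of 1659 genes and low cells 1580.

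RNA composition moved with the groups. Ribosomal protein genes took 29.8% of counts in high and 33.4% in low cells (32.2% with depth matched), mitochondrial genes 0.868% and 0.760%, and Gm42418, a transcript overlapping a ribosomal RNA locus, 6.51% and 5.66%. The nuclear transcript Neat1, also a reported p53 target, was at 25.8 against 11.3 CPM. Its log2 ratio of 1.12 was 0.48 with depth and cycle matched. Malat1 was at 231 against 168 CPM, but its log2 ratio of 0.45 was -0.46 with depth and cycle matched. Long genes were higher: of 694 tested genes spanning 100000 bases or more 31.0% were past 0.5, and of 1744 under 10000 bases 3.04%, which became 9.22% and 2.87% with depth and cycle matched. Phlda3 and Psrc1 span under 10000 bases, and Pvt1, Col18a1 and Hmga2 over 100000. The part of RNA composition in the other results was not tested.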

How the data were processed

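Single-cell RNA sequencing gave 1 matrix of whole-number counts per gene symbol and barcode, deposited unnormalized by the authors from PISA 0.12, as its header lines record (per the file headers). The submitters' processing notes name Cell Ranger and mm10 with no role. Aligner, annotation, cell calling and whether molecules or reads were counted: not given in the sources used here. The 20034 symbols and 6837 barcodes held no duplicates. Levels are counts summed over the cells of a group per 1000000, with exact Poisson intervals (scipy 1.17.1); shares have Clopper-Pearson intervals at 95%. Cells of 1 group differ beyond counting error, which these intervals leave out. Log2 ratios carry a pseudocount of 1 CPM, and genes were compared (called tested in the text, without a statistical test) at 10 CPM or more over the 5207 cells. Matching weighted the low cells over 8 bins of total counts, and over 4 bins of summed G2 and M level as well; all 238 high cells had counterparts. The groups' total counts were 7409256 and 25785964.

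Named genes are the 10 highest and 10 lowest ratios outside mitochondrial genes, up to 5 members of each list by absolute ratio, and every p53 target, p53 regulator and inhibitor of cyclin-dependent kinases; other names were chosen with their values in view. The members, lists and limits were chosen with earlier results of these data known. Coordinates are from GENCODE M21 and promoters from RefSeq. Only the unmatched log2 ratio was tried on simulated data, with pooled counts and set changes in 200 genes. Matching, thinning, strata and variation between cells were not simulated. Doublets were called with Scrublet (scanpy 1.11.5).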

Additional observations from a re-analysis of the deposited data

How the results depend on the processing

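All values rest on 1 sample, so no setting adds a replicate, and depth limits genes under 10 CPM, where a high cell at 5000 counts rests on few counts. No paired analysis was possible because the matrix is 1 sample with no replicate numbers. The p53 target median stayed between 0.56 and 0.77 under all 10 alternatives. The counts of genes higher in Cdkn1a-high cells and of genes lower in Cdkn1a-high cells, 594 and 36, were 199 and 10 with a pseudocount of 10 CPM, 1692 and 279 without a filter on low levels, 1145 and 307 with high cells at 1200 CPM or more (44 cells), and 303 and 87 when centred on the median gene. The higher count was 311 with depth matched and 269 with depth and cycle matched; the lower count was 57 with equal weight per cell and 102 without ribosomal, mitochondrial and rRNA-locus counts. The G2 and M median of 0.71 was 0.46 with depth matched, 0.19 with depth and cycle matched and 0.58 with cells chosen on a random part of their counts. The Myc target median, 0.083 unmatched, changed sign, being -0.075, -0.092 and -0.032 with depth matched, depth and cycle matched and centring, and the macrophage median was 0.30, 0.31 and 0.11. Of the results past 0.5 or -0.5, 2 changed sign: the log2 ratio of Fas was -0.062 at 1200 CPM or more, and the median of the granulocyte list was 0.027 without the filter, when all members with counts entered instead of Prtn3 alone. The causes of the other shifts were not tested. Matching on depth and cycle together, and centring, were chosen after seeing the data.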
